A study of Mus musculus with 21 samples.

Results

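Transcripts of 10 genes that make, lengthen and desaturate fatty acids were followed in 21 mouse tumours: Acly, Acaca, Fasn, Elovl6, Elovl5, Elovl2, Scd1, Scd2, Fads1 and Fads2. They were selected by symbol, matched to the Ensembl identifiers of a count table of 55487 identifiers, and all 10 were among the 19061 genes that passed the filter on low counts. The list was chosen with earlier results of these data known, among them the fall of Fads2 after the antibody combination in B-depleted tumours. For these 10 genes that comparison is therefore given as a description with no test. The other comparisons share its libraries in part or belong to the same study, so they are no independent support. The tumours were Hepa1-6, a mouse hepatoma cell line, grown in C57BL/6 mice. Host mice were WT or had been depleted of their B cells, and each background received either isotype antibody or anti-PD1 together with anti-CTLA4 (the combination). There were 5 libraries from WT tumours under isotype and 5 under the combination, and 6 and 5 from B-depleted tumours. No allele, dose, time or age is used here, the labels do not give the method of B-cell depletion, and they do not say whether each library came from a separate animal, so p-values measure the spread between these samples.

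Fatty acids are built in the cytosol from acetyl-CoA, which ATP citrate lyase (Acly) releases from citrate. Acetyl-CoA carboxylase (Acaca) converts it to malonyl-CoA, and fatty acid synthase (Fasn) joins these units into palmitate. Elongases (Elovl genes) add carbons, with Elovl6 acting on palmitate and Elovl5 and Elovl2 on polyunsaturated chains. The stearoyl-CoA desaturases Scd1 and Scd2 make monounsaturated acids such as oleate, and the front-end desaturases Fads1 and Fads2 act on polyunsaturated precursors on the way to arachidonate and docosahexaenoate. In liver these genes are textbook targets of the sterol-regulated factors of the SREBP family and of the oxysterol receptor LXR, and hepatocytes express many of them strongly.

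The genes lie on 5 chromosomes of GRCm38. Fads2 (chr19:10062765-10101746) and Fads1 (chr19:10182888-10196877) are neighbours on opposite strands, as are Scd2 (chr19:44293674-44306864) and Scd1 (chr19:44394455-44407879). Fasn (chr11:120805846-120824547), Acaca (chr11:84129672-84401651) and Acly (chr11:100476353-100528000) share a chromosome, Elovl6 is at chr3:129532355-129638495, Elovl5 at chr9:77917364-77984519 and Elovl2 at chr13:41182381-41220405. Promoter sequences, 250 bases before to 50 after the start site, were found in the RefSeq table of GRCm38.p6 for 7 of the 10 genes. They are shown for 3 genes that fell in WT tumours (Fasn, Fads2 and Elovl6) and for Elovl5, whose call differed from theirs, at chr11:120824498-120824797 (minus strand), chr19:10101454-10101753 (minus), chr3:129532136-129532435 (plus) and chr9:77917115-77917414 (plus). Each is written 5′ to 3′ along the gene, and capitals mark matches to the motifs described after them.
Fasn: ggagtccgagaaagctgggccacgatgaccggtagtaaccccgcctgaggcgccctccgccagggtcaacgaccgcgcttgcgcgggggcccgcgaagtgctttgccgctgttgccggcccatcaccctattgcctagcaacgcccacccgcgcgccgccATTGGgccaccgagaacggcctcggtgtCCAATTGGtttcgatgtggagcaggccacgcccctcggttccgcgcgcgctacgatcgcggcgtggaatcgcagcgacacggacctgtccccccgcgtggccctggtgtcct
Fads2: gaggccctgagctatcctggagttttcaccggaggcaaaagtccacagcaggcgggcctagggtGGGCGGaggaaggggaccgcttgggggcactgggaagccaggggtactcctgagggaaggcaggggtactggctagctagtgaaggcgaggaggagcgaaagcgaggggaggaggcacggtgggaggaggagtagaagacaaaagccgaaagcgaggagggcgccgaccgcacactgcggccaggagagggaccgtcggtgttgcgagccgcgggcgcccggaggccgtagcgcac
Elovl6: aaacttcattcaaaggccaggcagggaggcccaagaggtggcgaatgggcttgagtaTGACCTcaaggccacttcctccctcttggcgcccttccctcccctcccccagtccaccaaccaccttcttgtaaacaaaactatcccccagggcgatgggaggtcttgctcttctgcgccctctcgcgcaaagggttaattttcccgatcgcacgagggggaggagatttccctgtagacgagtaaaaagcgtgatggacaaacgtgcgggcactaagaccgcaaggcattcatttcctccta
Elovl5: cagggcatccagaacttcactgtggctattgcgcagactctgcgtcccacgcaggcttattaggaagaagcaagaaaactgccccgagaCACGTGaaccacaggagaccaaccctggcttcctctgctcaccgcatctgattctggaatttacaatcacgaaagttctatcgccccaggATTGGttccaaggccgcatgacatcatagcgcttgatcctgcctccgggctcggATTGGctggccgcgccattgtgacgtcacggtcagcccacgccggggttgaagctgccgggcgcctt
Both strands were searched for 6 motifs, and a match is a description of letters, not a binding site. The Fasn promoter held 3 matches to the CCAAT box, starting at -90, -62 and -59 from the start site, of which the last pair overlaps as CCAATTGG, and 37.4% of 32851 promoters in the table held at least 1. Fads2 held 1 GC box (GGGCGG, in 35.7% of promoters) at -186. Elovl6 held 1 AGGTCA receptor motif (16.3%) at -193, on the opposite strand. Elovl5 held an E-box (CACGTG, 7.15%) at -161 and CCAAT boxes at -71 and -17. The letters TCACNCCAC of a sterol regulatory element (1.24% of promoters) were in none of the 8 promoter sequences of the 7 genes, and TATAAA (13.6%) in none either. The Acaca sequence (chr11:84195188-84195487) lies inside the gene, away from its first annotated base. Sites outside these sequences, or spelled with other letters, were not searched.

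Library totals ran from 9.52 to 19.17 M counts (median 15.9 M), which puts 1 CPM (counts divided by the library total in M) at 9.52 counts or more. All 6 hepatoma markers on the list (Afp, Gpc3, H19, Igf2, Igf2bp3 and Dlk1) were detected in every arm. A pair of libraries stood apart among the B-depleted combination tumours: replicate 4 held adipocyte transcripts, and replicate 5 had the lowest hepatocyte sum (545 CPM) and the highest macrophage sum (3058 CPM) of its arm. Transcripts of B-lineage cells were also seen in B-depleted libraries: 7 plasma-cell genes summed to 163 and 62.2 CPM in isotype replicates 3 and 5, and 5 B-cell genes to 5.0 CPM in combination replicate 5, above the 0.772 to 2.32 CPM of the WT isotype libraries and thus against its label, and within the 3.59 to 15.5 CPM of the WT combination libraries. WT isotype replicates 1 and 2 had hepatocyte sums of 1011 and 1082 CPM, against 2003 to 2854 CPM in the other 3. The tumours are bulk tissue, so fewer cells of a type and less RNA per cell cannot be told apart.

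Scd2 was by far the most abundant of the 10 in WT isotype tumours when levels were compared per kb of exon. It stood at 175 ± 16.6 CPM per kb (SD, n = 5), followed by Acly (37.4 ± 0.815), Scd1 (36.3 ± 4.62) and Fasn (33.1 ± 7.97 CPM per kb), whose ranges overlapped. Fads1 (24.5 ± 1.17) and Elovl5 (21.7 ± 1.86 CPM per kb) came next and overlapped slightly, and Fads2 stood at 12.7 ± 1.73 CPM per kb. Acaca (5.52 ± 0.328) and Elovl6 (4.96 ± 0.409 CPM per kb) were low and overlapped, and Elovl2 (2.47 ± 2.12 CPM per kb), the most uneven, reached into the range of Elovl6. With the length of the longest transcript in place of all exons, Acaca rose to 9.90 ± 0.589 CPM per kb and stood apart from Elovl6 (5.36 ± 0.442), and the order was otherwise similar, with Fads1 at 34.0 ± 1.63 CPM per kb close to Fasn (36.0 ± 8.69). Library-to-library spread differed widely among the genes: in WT isotype the coefficient of variation was 2.18% for Acly, 4.79% for Fads1 and 24.1% for Fasn, against 85.8% for Elovl2.

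**Figure D1:**
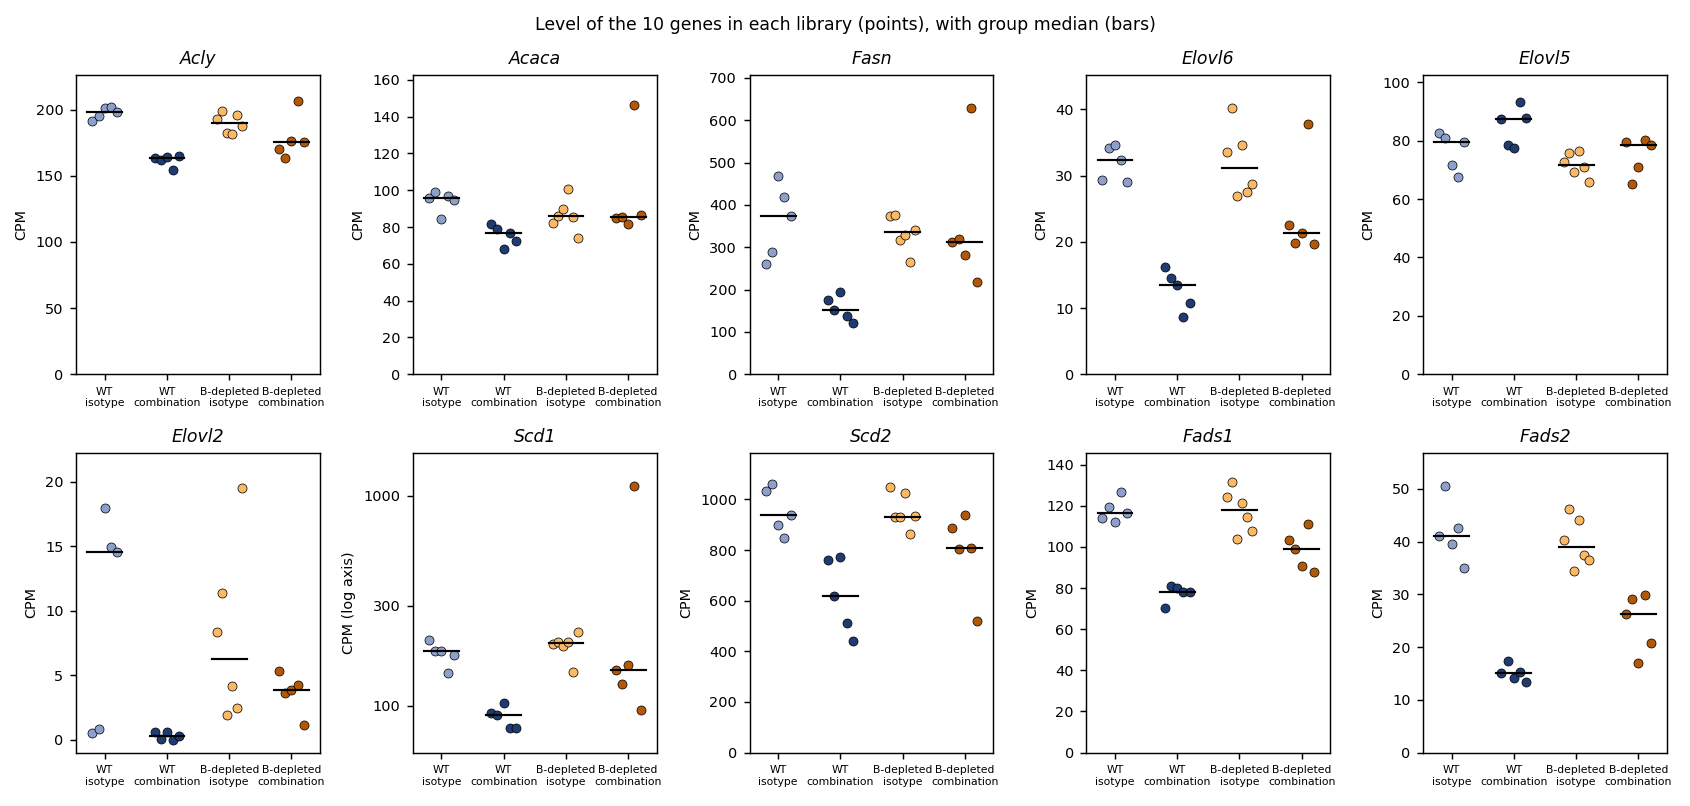
Level of each gene in CPM of the library total (y axis, log for Scd1 only) in the 4 arms (x axis), with 1 point per library in replicate order and a bar at the arm's median. The 5 WT combination libraries lie below all others for Fads1, Elovl6 and Fasn, and 1 B-depleted combination library stands at 1115 CPM for Scd1.

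In WT tumours the combination lowered 7 of the 10 genes and raised none, at an adjusted p under 0.05 in edgeR's quasi-likelihood test, while 25.0% of all 19061 genes fell and 25.0% rose. The falls were 2.30-fold to 2.73-fold for Fads2, Elovl6 and Fasn, 1.50-fold and 1.52-fold for Fads1 and Scd2, and 1.21-fold for Acly, and Elovl2 was close to absent after the combination. For 8 of the 10 (all but Elovl2 and Elovl5) every combination library lay below every isotype library, against 14.3% of all genes tested. The median log2 fold change of the 10 was -0.79, against -0.001 over all genes. The 7 calls held when any 1 library was left out.

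Fads2, the delta-6 desaturase and entry enzyme of the polyunsaturated pathway, had the smallest p of the 10. Its level was 41.0, 50.6, 39.6, 42.7 and 35.0 CPM in the WT isotype libraries and 15.1, 17.5, 14.1, 15.3 and 13.4 CPM in the WT combination libraries. No isotype library came near the combination range, and the change was -1.45 ± 0.14 on the log2 scale (± SE; 2.73-fold lower, edgeR adjusted p = 5.16e-06). Fads1, the delta-5 desaturase beside it on the chromosome, went from 114, 119, 112, 127 and 117 CPM to 70.1, 80.8, 80.3, 78.2 and 77.9 CPM. That was a smaller change, -0.58 ± 0.07 (1.50-fold lower, adjusted p = 3.82e-05 by edgeR), in arms that also did not overlap.

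Of the elongases, Elovl6 fell while Elovl5 did not. Elovl6, which lengthens palmitate to stearate, was at 29.3, 34.1, 34.6, 32.3 and 29.0 CPM under isotype and 16.3, 14.6, 13.5, 8.72 and 10.8 CPM under the combination. All combination libraries were well below the isotype range, and the change was -1.30 ± 0.18 (2.47-fold lower, edgeR adjusted p = 6.02e-05). Elovl5, an elongase of polyunsaturated chains, stood at 76.5 ± 6.55 CPM under isotype and 84.9 ± 6.79 CPM under the combination (n = 5 each), with overlapping arms and a change of 0.17 ± 0.08 (95% interval 0.02 to 0.32) that did not pass (edgeR adjusted p = 0.0668). Elovl2, which extends polyunsaturated chains further, was at 0.552, 0.865, 18.0, 14.9 and 14.6 CPM under isotype and at 0.619, 0.0634, 0.629, 0 and 0.261 CPM under the combination. WT isotype replicates 1 and 2, the libraries with few hepatocyte transcripts, thus lay near the combination libraries, which held between 0 and 11 counts each. The fitted change was -4.91 ± 1.00 (edgeR adjusted p = 0.000771), a size that rests on these few counts, and -5.61 ± 0.77 without those 2 libraries (adjusted p = 9.97e-05), an alternative added with the values known.

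Fasn, the synthase itself, fell 2.30-fold. It was at 260, 289, 468, 419 and 374 CPM under isotype, again lower in replicates 1 and 2, and at 176, 152, 195, 137 and 121 CPM under the combination. The arms did not overlap, and the change was -1.20 ± 0.23 (edgeR adjusted p = 0.000498). The genes upstream of it moved little: Acly went from 198 ± 4.31 to 162 ± 4.28 CPM (-0.27 ± 0.06, edgeR adjusted p = 0.0017), and Acaca from 94.2 ± 5.60 to 75.5 ± 5.35 CPM (-0.30 ± 0.13, adjusted p = 0.0526), each with separate arms. The call of Acaca depended on the setting. It passed with the RLE size factors (edgeR adjusted p = 0.0446), no low-count filter (0.0445), a mean of at least 1 CPM as the filter (0.0358) and the title number as a replicate block (0.0294). DESeq2 called it too (adjusted p = 0.0466). It also passed when B-depleted isotype replicate 4 or 6 or B-depleted combination replicate 1, 2 or 3 was left out (edgeR adjusted p from 0.045 to 0.0467). The adjusted p in edgeR was lower without B-depleted combination replicate 4 (-0.30 ± 0.07, 0.00158), without both libraries that stand apart (0.00139) and with only the WT arms in the model (0.00323).

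Both stearoyl-CoA desaturases were lower in every WT combination library. Scd2 was at 1035, 1062, 899, 849 and 937 CPM under isotype and 760, 619, 774, 511 and 440 CPM under the combination, a change of -0.60 ± 0.14 (1.52-fold lower, edgeR adjusted p = 0.00231). Scd1 went from 205, 183, 182, 143 and 174 CPM to 92.5, 90.2, 104, 78.5 and 78.5 CPM. Its arms did not overlap, but the change of -0.98 ± 0.48 did not pass in the model of all 21 libraries (edgeR adjusted p = 0.0933). The error of that model takes in B-depleted combination replicate 4, at 1115 CPM: without that library the change was again -0.98, with an SE of 0.13 and an adjusted p of 7.30e-05, and with only the 2 WT arms in the model the adjusted p was 0.000323. Scd1 and Scd2 are related copies, and how any reads that fit both were counted is not given in the sources used here.

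**Figure D2:**
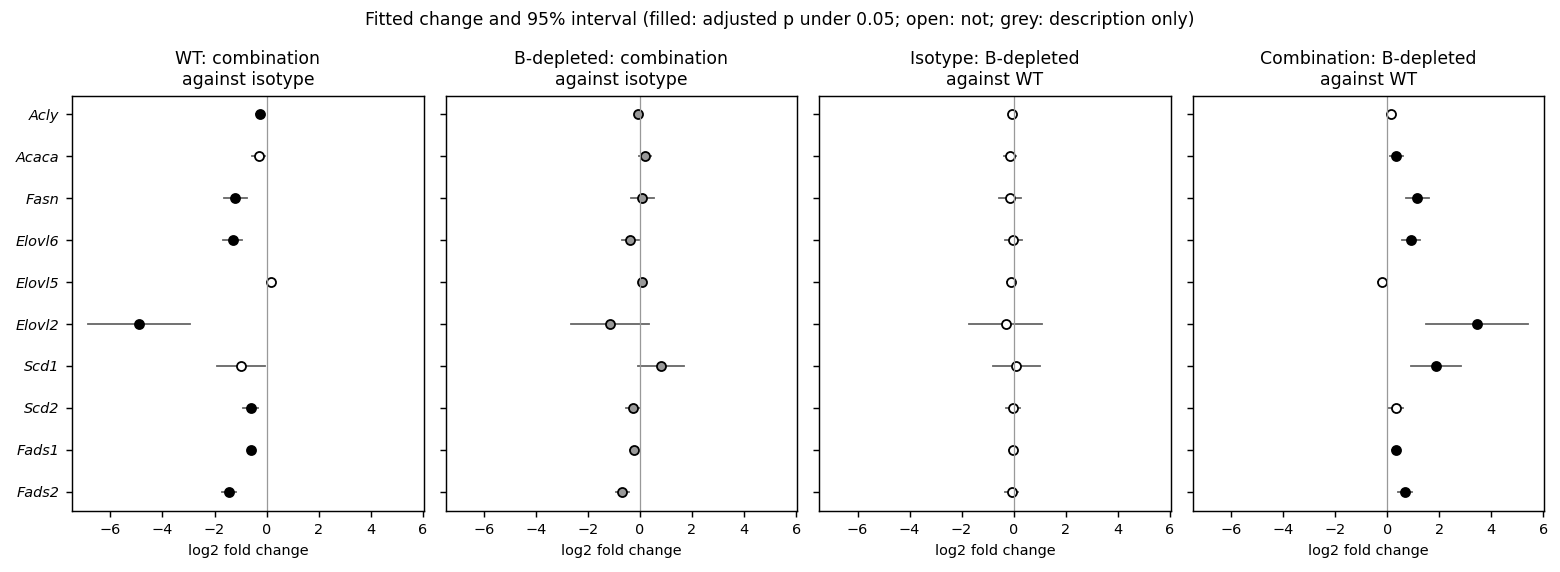
Log2 fold change (x axis) of each gene (y axis) in 4 comparisons from the model of all 21 libraries, with 95% intervals as lines. Filled points passed an adjusted p under 0.05 and open points did not, and grey marks the comparison given as a description. The WT points lie left of 0 except Elovl5 (0.17), and in the comparison of B-depleted with WT tumours under isotype the points lie between -0.31 and 0.11.

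Several sums of marker genes moved with this fall. The sum of 12 hepatocyte genes, all detected in both WT arms, ran from 1010 to 2850 CPM under isotype and from 121 to 998 CPM under the combination, the sum of 8 macrophage genes from 824 to 1620 and from 2710 to 5220 CPM, and that of 6 cell-cycle genes from 926 to 1140 and from 486 to 981 CPM. The 6 hepatoma genes summed to 217 to 1580 CPM and to 113 to 318 CPM, with overlap. The sums of 8 T-cell genes (70.4 to 140 and 329 to 525 CPM) and 7 fibroblast genes (2660 to 5050 and 7320 to 26300 CPM) were higher under the combination without overlap. No defining marker on these lists was at 0 in all libraries of a WT arm. The 4 Y-linked genes rose too, and their sum ran from 47.6 to 79.2 CPM under isotype and from 135 to 250 CPM under the combination, so the arms did not overlap in it. With that level as a covariate 0.404% of all genes were called in either direction. Fads2 was still called (-1.34, edgeR adjusted p = 0.0185). The other genes called without the covariate no longer passed: Scd2 stood at -0.07, Acly at -0.21, Fasn at -0.42, Fads1 at -0.46, Elovl6 at -0.75 and Elovl2 at -2.21. The part that a changed mix of cells has in these falls was not tested further.

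In B-depleted tumours the same antibodies were followed by smaller differences in these genes, given here as a description. Fads2 ran from 34.4 to 46.1 CPM (median 38.9) in the 6 isotype libraries and was 26.4, 29.1, 17.0, 29.8 and 20.8 CPM in the combination libraries, so the arms did not overlap, and the fitted log2 fold change was -0.68 ± 0.13. Every other gene had overlapping arms. Scd1 had a larger but less certain change (0.79 ± 0.45), and the next in size among those with a level above 10 CPM were Elovl6 (-0.38 ± 0.17), Scd2 (-0.26 ± 0.14) and Fads1 (-0.24 ± 0.07). Fads1 ran from 104 to 131 CPM (median 118) under isotype and was at 103, 99.1, 90.7, 111 and 87.8 CPM under the combination, a shift with some overlap. Acly (-0.07 ± 0.06), Elovl5 (0.08 ± 0.07), Fasn (0.09 ± 0.22) and Acaca (0.19 ± 0.12) lay closer to 0, and Elovl2 (-1.15 ± 0.76) went from a median of 6.25 CPM (1.92 to 19.6) to 5.36, 3.62, 3.87, 4.22 and 1.14 CPM. Across all genes 0.0367% fell and 0.304% rose at an adjusted p under 0.05, and 0.876% had every combination library below every isotype library. Fads2 was the 1 member in the first and the last of these counts, from which nothing is read, since this comparison was known when the list was chosen.

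A single tumour carried much of what was high in that arm. B-depleted combination replicate 4 had an Scd1 level of 1115 CPM, 8.08 times the median of the other 4 libraries of its arm and above the 224 CPM that was the highest of the other 20 libraries. Fasn stood at 628 CPM (2.12 times the median of the other 4), Elovl6 at 37.9 CPM (1.84 times) and Acaca at 146 CPM (1.72 times), whereas Scd2 (807 CPM, 0.955 times) and Elovl5 (80.1 CPM, 1.07 times) did not stand out. In the same library the sum of 8 adipocyte genes was 329 CPM, against 17.4 CPM or less in the other 20. Adiponectin (Adipoq) was at 23.6 CPM, the lipid-droplet coat protein Plin1 at 39.5 CPM and adipsin (Cfd) at 138 CPM, where the highest values elsewhere were 1.10, 3.26 and 4.90 CPM. Adipocytes express Scd1, Fasn and Acaca strongly, and the part that adipocyte RNA has in these levels was not tested. Without this library the B-depleted log2 fold changes were -0.55 ± 0.13 for Scd1, -0.23 ± 0.17 for Fasn, -0.02 ± 0.07 for Acaca and -0.60 ± 0.14 for Elovl6, so that 3 of the 4 changed sign.

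**Figure D3:**
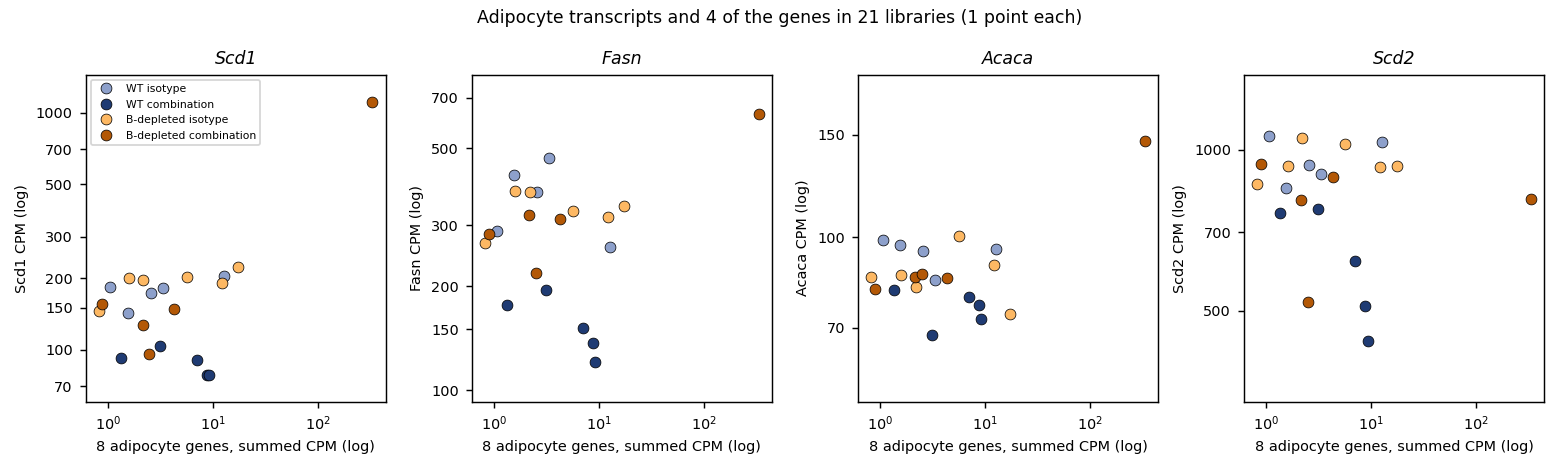
Summed CPM of 8 adipocyte genes (x axis, log) against the CPM of Scd1, Fasn, Acaca and Scd2 (y axes, log), with 1 point for each of the 21 libraries, coloured by arm. The single point at 329 CPM on the x axis is the highest for Scd1 (1115 CPM), Fasn (628 CPM) and Acaca (146 CPM) and lies among the others for Scd2 (807 CPM).

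Without checkpoint antibodies, B-cell depletion left all 10 genes near their WT level. Under isotype antibody none passed the adjusted threshold in edgeR, none had an unadjusted p under 0.05 (where 2.95% of all genes did), and DESeq2 called none. Across all genes edgeR called 0.0% here and DESeq2 0.0127%. The log2 fold changes ran from -0.31 to 0.11. Their precision differed: the 95% interval was -0.16 to 0.12 for Fads1, -0.33 to 0.16 for Fads2 and -0.29 to 0.25 for Scd2, but -0.78 to 1.00 for Scd1 and -1.71 to 1.10 for Elovl2. Fads1 stood at 118 ± 5.64 CPM in WT and 117 ± 10.5 CPM in B-depleted isotype tumours, and Scd2 at 957 ± 90.4 and 955 ± 70.2 CPM.

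Under the combination, 7 of the 10 genes were higher in B-depleted than in WT tumours and none was lower, where 15.5% of all genes were higher and 13.5% lower. This comparison shares the WT combination libraries with the WT comparison and the B-depleted combination libraries with the B-depleted one, so it is no separate evidence. Elovl2 was higher by 3.45 ± 1.01 (edgeR adjusted p = 0.0194), at 1.14 to 5.36 CPM against 0 to 0.629 CPM. Scd1 was higher by 1.88 ± 0.49 (adjusted p = 0.0129), and by 0.55 ± 0.14 (adjusted p = 0.0228) without B-depleted combination replicate 4. With only the groups compared the call of Scd1 was lost (adjusted p = 0.0612), as it was with the description code as a replicate block (0.0547). Fasn was higher by 1.16 ± 0.23 (2.23-fold, adjusted p = 0.0055 by edgeR), with all of its B-depleted libraries, from 218 CPM, above all WT libraries, up to 195 CPM, and by 0.83 ± 0.17 without replicate 4 (adjusted p = 0.0149). For Elovl6 the difference was 0.91 ± 0.18 (1.88-fold, adjusted p = 0.00563 by edgeR) in arms that did not overlap.

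The desaturases of polyunsaturated chains were also higher in the B-depleted tumours. Fads2 was at 24.6 ± 5.56 against 15.1 ± 1.53 CPM (n = 5 each; 0.69 ± 0.14, edgeR adjusted p = 0.00533), with 1 B-depleted library, replicate 3 at 17.0 CPM, inside the WT range. Fads1 was at 98.4 ± 9.41 against 77.5 ± 4.32 CPM (0.33 ± 0.07, edgeR adjusted p = 0.00817), in arms that did not overlap. Acaca passed narrowly (0.35 ± 0.13, edgeR adjusted p = 0.043), and Scd2 (0.33 ± 0.14, 0.0878), Acly (0.13 ± 0.06, 0.118) and Elovl5 (-0.20 ± 0.08, 0.057) did not. Several of these calls hung on single libraries. Acaca lost its call without WT isotype replicate 5 (adjusted p = 0.0502), WT combination replicate 2 (0.064), 3 (0.0664), 4 (0.0786) or 5 (0.0935), or B-depleted combination replicate 4 (0.15 on the log2 scale, adjusted p = 0.131), and Elovl2 without WT combination replicate 4 (0.0565) or 5 (0.0529). Scd2 gained one without WT combination replicate 1 (0.0486) or 3 (0.0245) or B-depleted combination replicate 5 (0.0147), as did Elovl5 without WT combination replicate 3 (0.0411) or B-depleted combination replicate 5 (0.0268). The 12 hepatocyte genes, all detected in both arms, summed to 545 to 1800 CPM in B-depleted and 121 to 998 CPM in WT combination tumours, and the 8 macrophage genes to 1440 to 3060 and 2710 to 5220 CPM, so both sets overlapped only in part. With the Y-linked level as a covariate none of the 10 was called, and 0.021% of all genes were. The log2 fold changes there were 0.63 ± 0.17 for Fads2, 0.25 ± 0.09 for Fads1 and 0.73 ± 0.24 for Fasn. Elovl6 was at 0.61 ± 0.19 and Elovl2 at 2.00 ± 1.16. Acaca was at 0.39 ± 0.16 and Scd1 at 1.47 ± 0.68, in a fit that kept B-depleted combination replicate 4. Acly (0.10 ± 0.07), Elovl5 (-0.15 ± 0.09) and Scd2 (0.02 ± 0.14) had the smallest differences. The part that a changed mix of cells has in these differences was not tested further.

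The direct test of whether the antibody response differed between WT and B-depleted tumours called none of the 10 genes in edgeR. It contains the B-depleted comparison that was known when the list was chosen, so its values and counts are no separate evidence. Across all genes 0.0262% were called, so the test made few calls at all. Before adjustment 8 of the 10 (all but Scd2 and Elovl5) had a p under 0.05, as did 25.6% of all genes tested. DESeq2, the alternative tool, called Fads1, Fads2, Elovl2, Elovl6 and Fasn, 5 of the 10, against 6.39% of the genes for which it gave an adjusted p. The difference between the responses was 1.29 ± 0.31 for Fasn (edgeR adjusted p = 0.0745; 0.00795 in DESeq2), 0.77 ± 0.18 for Fads2 (0.0745; 0.00896) and 0.93 ± 0.25 for Elovl6 (0.0786; 0.0174), positive where the fall was smaller in B-depleted tumours. Their intervals excluded 0 but failed the correction over all genes. Leaving out 1 library gave calls in 3 cases: WT combination replicate 1 (3 genes), WT combination replicate 3 (4 genes) and B-depleted combination replicate 5 (4 genes). The share of all genes called rose with them, to 1.87%, 7.97% and 7.14%. Scd1 differed by 1.77 ± 0.66, and by 0.44 ± 0.18 without B-depleted combination replicate 4.

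Pairs of enzymes that act beside each other did not all keep their proportions, as the shares of each pair per kb show by description. Fads2 made up 34.0% of the Fads2 and Fads1 pair in WT isotype tumours (median; 30.5% to 38.2%) and 22.2% in WT combination tumours (20.1% to 24.0%), against 32.8% and 27.2% in the B-depleted arms. Elovl6 went from 18.8% of its pair with Elovl5 (16.2% to 20.9%) to 8.74% (4.87% to 9.25%) in WT, and from 19.6% to 14.1% in B-depleted tumours. These shifts separated the WT arms for both pairs. Fasn made up 86.0% of its pair with Acaca in WT isotype (80.9% to 89.6%) and 74.9% in WT combination tumours (72.2% to 81.7%), with ranges that overlapped slightly. In the B-depleted arms its share was 85.9% and 85.1%. Scd1 held 17.2% of the Scd1 and Scd2 pair in WT isotype and 14.0% in WT combination tumours, with ranges that overlapped, and 60.7% in B-depleted combination replicate 4.

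**Figure D4:**
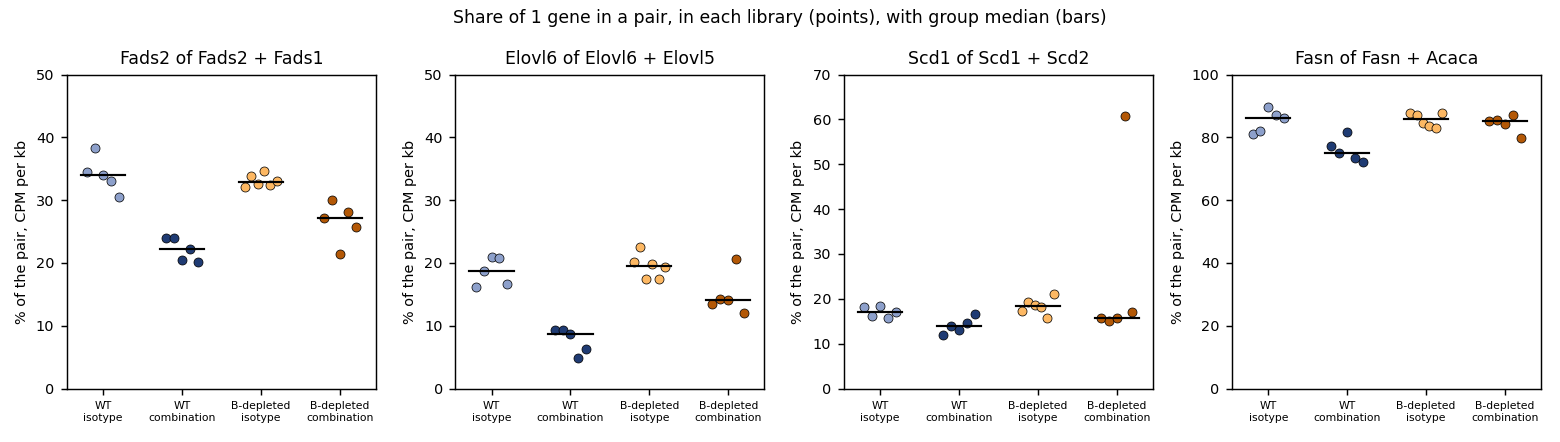
Share of the first gene in each of 4 pairs (y axis, percent of the summed CPM per kb) by arm (x axis), with 1 point per library and a bar at the arm's median. The WT combination libraries lie below all others for Elovl6 (4.87% to 9.25%) and below both isotype arms for Fads2 (20.1% to 24.0%), and 1 B-depleted combination library stands at 60.7% for Scd1.

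Within arms, the genes varied together only in part. Among the 45 pairs of genes, correlated over 21 libraries after the mean of each arm was subtracted, 2 passed a permutation test adjusted over the 45 by Pearson's r. They were Elovl6 with Fasn (r = 0.73, rho = 0.68, adjusted p = 0.0389 and 0.0267, permutation test) and Elovl2 with Fasn (r = 0.63, rho = 0.76, adjusted p = 0.0389 and 0.022, permutation test). Without the 2 libraries farthest from the median of the first gene, r was 0.61 and 0.56. Fads1 and Fads2, the neighbouring desaturases, had r = 0.68 and rho = 0.73 (adjusted p = 0.063 and 0.0267, permutation test). Scd1 and Fasn had r = 0.74 but 0.26 without the 2 farthest libraries, so that relation rests on those libraries.

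The genes whose levels most resembled those of each of the 10 across the 21 libraries are given as a description. Among 12515 genes searched, Fads2 was most like Hmgcs1 (r = 0.95) and Hsd17b7 (0.943), both enzymes of cholesterol synthesis, and then Frmd4a (0.928). For Elovl6 they included Sqle (0.953), the squalene epoxidase of that pathway, and Hmgcs1 (0.952), and for Fads1 they were Hsd17b7 (0.936), Zcchc14 (0.925) and Hmgcs1 (0.919). Acly had 1500009L16Rik (0.917), Hsd17b7 (0.892) and Hmgcs1 (0.884). Fasn (Cks1b 0.955, Cse1l 0.954, Utp20 0.953) and Scd2 (Rpl7 0.98, Arhgef5 and Ash2l 0.975 each) had other leading genes, and for Scd1 (Actl6a, 0.811), Elovl5 (Usp8, 0.872) and Acaca (Usp45, 0.823) the likeness was weaker. Elovl2 was most like Sec13 (0.973), Cpd (0.972) and D330037F02Rik (0.971). These points share the differences between arms and the mix of cells in each tumour.

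In the wider lipid network, WT tumours had less transcript of many fatty acid and cholesterol synthesis genes after the combination. Several uptake genes were higher. Of 25 other genes of synthesis, elongation and desaturation, 22 were tested, 13 fell and 2 rose, where 25.0% of all genes went each way. The elongase Elovl7 fell by 1.27 and Hacd2, a dehydratase of the elongation cycle, by 1.06 on the log2 scale, while Hacd4, another of that family, rose by 0.86. Of 17 cholesterol synthesis genes 12 fell and none rose, among them Sqle (-1.87) and Idi1 (-1.59). All of these passed edgeR's adjusted threshold, with adjusted p from 3.36e-05 to 0.00527. Among 16 tested regulators of lipogenesis 6 fell and 3 rose, again near the 25.0% of all genes in each direction: the fatty acid receptor Ppara fell by 2.14 and the sterol-regulated factor Srebf2 by 0.91, and the LXR gene Nr1h3 rose by 1.00.

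Of 6 tested uptake and binding genes 4 rose and none fell, among them the fatty acid transporter Cd36 (1.82), the binding protein Fabp5 (1.50) and lipoprotein lipase Lpl (1.27). Macrophages express all 3, and the sum of 8 macrophage genes rose as given above, as did those of T-cell and fibroblast genes. The part that any of these cells has in the rises was not tested. Among 13 tested genes of fatty acid oxidation 5 rose and 4 fell, shares not far from the 25.0% of all genes in each direction, with Slc25a20 (0.63), Hadhb (0.49) and Hadh (-0.54). In glyceride synthesis and storage 2 of 11 rose and 1 fell, where 25.0% of all genes went each way. The fall was in Gpam, the acyltransferase that starts glyceride synthesis (-1.45), and the droplet protein Plin2 rose by 0.42. With the Y-linked covariate, under which 0.404% of all genes were called, none of the genes named in these lists passed. Hacd4 (-0.09) and Hadh (0.06) changed sign there, while Plin2 (0.57), Cd36 (1.12), Idi1 (-1.13) and Sqle (-0.99) kept theirs. The lists too were chosen with earlier results of these data known, so for B-depleted tumours nothing is read from their counts. There Fabp5 (1.06, edgeR adjusted p = 0.0279) was the 1 call over all 6 lists, where 0.304% of all genes rose and 0.0367% fell. Its call was lost when any 1 of B-depleted isotype replicates 1, 2, 4 and 6 or B-depleted combination replicates 3 and 5 was left out (adjusted p from 0.0539 to 0.0887). It was also lost with no low-count filter (0.0722), only the groups compared (0.126), the description code as a replicate block (0.0744) and the Y-linked covariate (0.113). The 17 cholesterol genes had a median of -0.37, with Cyp51 at -0.64 and Idi1 at -0.88.

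**Figure D5:**
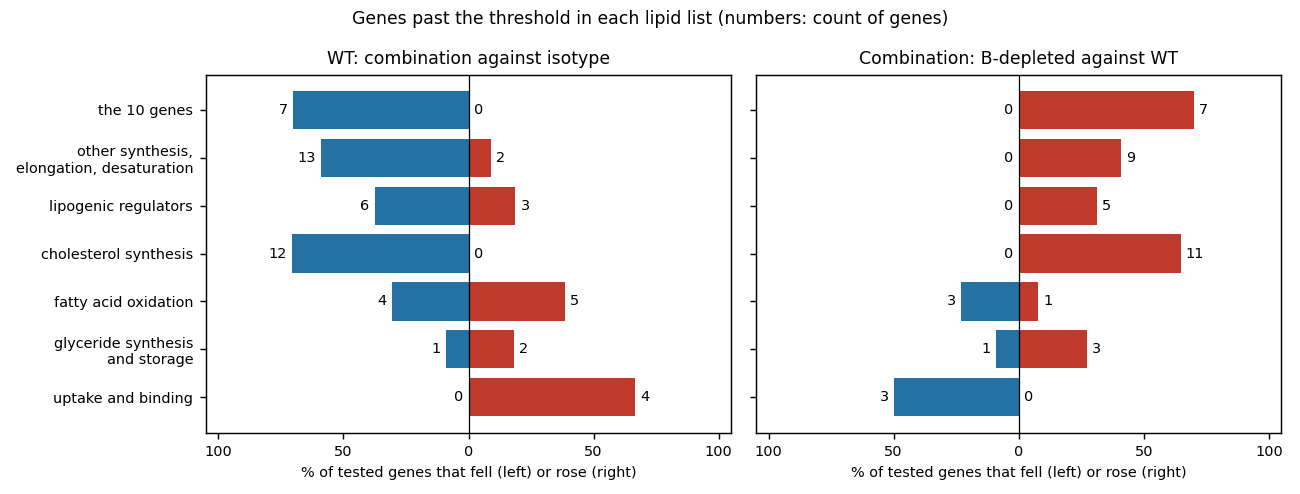
Share of the tested genes of each list (y axis) that fell (left) or rose (right) at an adjusted p under 0.05 (x axis, percent), with the counts printed, for WT tumours after the combination and for B-depleted against WT tumours under the combination. Cholesterol synthesis shows 12 falls in the first and 11 higher genes in the second panel.

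Under the combination the B-depleted tumours had more transcript of some lipid-building genes than WT tumours. Of the 22 other synthesis genes tested 9 were higher, where 15.5% of all genes were higher and 13.5% lower, with Elovl7 (0.93), Hacd2 (0.77) and Acsl5, an acyl-CoA synthetase (0.47), and of 17 cholesterol genes 11, with Sqle (1.23) and Cyp51 (0.89). None in either list was lower. Of 16 regulators 5 were higher, among them the carbohydrate-response factor Mlxipl (1.48), Ppara (1.28) and Srebf2 (0.64). Uptake genes went the other way, with Cd36 (-0.91), Lpl (-0.81) and Fabp5 (-0.61) lower and none of 6 higher. In oxidation 3 of 13 were lower, among them Hadhb (-0.41) and Acaa1a (-0.36), and Hadh (0.39) was higher. Glyceride genes had 3 higher and 1 lower of 11, and their leading gene, the droplet gene Cidec, was at 4.20, but at 0.70 (adjusted p = 0.548) without the library with adipocyte transcripts, where Dgat2 (1.72) was at 1.08 (adjusted p = 0.171) and Gpam (1.11) kept its call. Leaving out WT combination replicate 4 ended the calls of Elovl7, Mlxipl, Ppara, Hadh, Cd36, Lpl (then -0.48), Fabp5 and Dgat2 (adjusted p from 0.0565 to 0.146). Each of the other 4 WT combination and the 5 B-depleted combination libraries ended at least 1 of the calls of Mlxipl, Ppara, Hadh, Lpl, Fabp5 and Dgat2 (adjusted p from 0.0533 to 0.171). With the Y-linked covariate, under which 0.021% of all genes were called, none of the genes named in this comparison passed. All kept their sign there, with Sqle at 0.79, Cyp51 at 0.69, Gpam at 0.48, Hacd2 at 0.43, Srebf2 at 0.35 and Acsl5 at 0.16.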

How the data were processed

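RNA from 21 frozen Hepa1-6 tumours was sequenced as stranded mRNA libraries, per the labels' protocols. The deposited values are raw read counts per Ensembl gene, as their whole numbers and unequal totals show; cutadapt 2.4, STAR 2.7.2a and GRCm38 were used, per the submitters' processing notes. The sources used here do not give the counting program, its strand setting or the annotation release, so reads in the 34 bases that Elovl6 shares with the antisense gene Gm35986, and in the 61 bases that Scd2 shares with Mir5114, cannot be told apart.

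Groups came from sample titles. Identifiers were matched to GENCODE M21 (55227 of 55487). Counts were fitted with edgeR 4.0.16 in R 4.3.3: filterByExpr (19061 genes), TMM scaling (0.953 to 1.029) and the robust quasi-likelihood test on all 21 libraries in 1 model of the 4 arms (common biological coefficient of variation 0.246), and a gene was called below an adjusted p (Benjamini-Hochberg) of 0.05. The script was tested on simulated data. CPM were computed from library totals (9.52 to 19.17 M, median 15.9 M), without scaling factors, and per kb of the exons of all transcripts. Log2 CPM for correlations used a prior count of 2, and permutation tests used 100000 permutations within arms. DESeq2 1.42.0 was an alternative, with other scalings, filters, replicate blocks, a Y-linked covariate and each library left out.

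The 10 genes and all lists were chosen with earlier results of these data known. All 10 are named in every comparison. From each other lipid list the 3 called genes with the largest change and a mean of at least 1 CPM are named, or 2 as values where none was called, and for likeness the 3 genes of highest r with a mean of at least 5 CPM; some genes that this rule names are not reported here. From the lists without a call only the pair of cholesterol genes in B-depleted tumours is printed. Of 30 pairs with the same title number, 9 correlated at r over 0.1 (lowest -0.355, highest 0.555). Pairs with different numbers were not examined beside them, so whether replicate numbers pair the samples cannot be told.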

Additional observations from a re-analysis of the deposited data

Results flagged for a closer look

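In 40 sets of values (10 genes in 4 arms), 6 held a library that stood off from the others of its arm by Dixon's criterion at the 95% level, where chance gives about 1 in 20. Of these, 4 were B-depleted combination replicate 4, the library with adipocyte transcripts: Scd1 at 1115 CPM, Fasn at 628 CPM, Acaca at 146 CPM and Elovl6 at 37.9 CPM, each above the rest of its arm. The other two were low values in WT combination tumours, Fads1 at 70.1 CPM in replicate 1 and Acly at 154 CPM in replicate 4.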

How the results depend on the processing

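With the Y-linked level as a covariate, 1 of the 10 genes was called in the WT comparison (7 without it) and 0 in the B-depleted tumours and in the depletion comparison under the combination (7 without it), but it also left 0.404%, 0.163% and 0.021% of all genes called in these 3 comparisons. In B-depleted tumours, known when the list was chosen and from which nothing is read, Fads2 was the 1 gene past the threshold, DESeq2 had 2 and the count was 0 with only the groups compared, with the description code as a replicate block, and without both B-depleted combination libraries that stand apart, and 0 to 1 with 1 library left out. In the interaction (0 calls) DESeq2 called 5, 1 left-out library gave 0 to 4, leaving out the WT isotype libraries with few hepatocyte transcripts 4 (10.1% of all genes), and leaving out both that stand apart 1 (1.2%). With 1 library left out the count was 7 to 9 in the WT comparison, 5 to 9 for depletion under the combination and 0 for depletion under isotype. The title number as a replicate block gave 8 calls in WT and 8 for depletion under the combination, and the description code as a replicate block 7 and 6. Whether these numbers pair the samples cannot be told. The cause of these changes was not tested, except that smaller models have fewer samples. None of the 10 genes changed sign in a comparison that had called it, under any alternative tried. The alternatives that leave out 2 or 3 libraries named by their transcripts were chosen after seeing the data: without the 3 B-depleted libraries with B-lineage transcripts 7 genes were called in WT and 9 for depletion under the combination. At these depths Elovl2 rests on 0 to 11 counts per WT combination library.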
